A study of Mus musculus with 8 samples.

Results

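The transcripts examined here are 10 genes of glucose use that respond to low oxygen: Slc2a1, Hk2, Gpi1, Pfkp, Aldoa, Pgk1, Eno1, Pkm, Ldha and Pdk1. They were taken by symbol from a table of 13558 transcripts, measured by mRNA sequencing of mouse embryonic stem (mES) cells, and all 10 were present. The comparison asked whether the RNA of these genes differed between cells with and without Trim71, an RNA-binding ubiquitin ligase that the microRNA let-7 keeps low in most differentiated cells.

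The 8 libraries came from male C57BL/6 cells grown with serum and LIF. 4 libraries were WT, labelled Trimfl/fl, in which both Trim71 alleles carry loxP sites around the last exon but remain intact. The other 4 were KO, labelled Trim-/-, made from the same conditional cells, per the labels with 500 nM 4-hydroxytamoxifen for 2 days, which turns on a CreERT2 recombinase expressed from the Rosa26 locus. KO cells were kept in culture for at least 7 further days, and cells of both groups were sorted for the surface antigen SSEA-1. Whether the WT cells of these libraries received a solvent control is not stated in the labels. Only the KO labels give 4-hydroxytamoxifen and the further culture. Effects of the drug, of active CreERT2 and of that culture cannot be told apart from those of losing Trim71. Per the labels, each genotype was drawn from a pair of clones, E3 (3 KO and 2 WT libraries) and 1 (1 KO and 2 WT libraries), and each library has a day: 2, 3, 4 and 5 for KO replicates 1 to 4, and 1, 3, 4 and 5 for WT replicates 1 to 4. Days 3, 4 and 5 therefore have 1 library of each genotype, while KO replicate 1 and WT replicate 1 have no partner.

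Glycolysis turns glucose into pyruvate through a chain of cytosolic enzymes, and lactate dehydrogenase then turns pyruvate into lactate, which lets the chain run without oxygen. When oxygen is low, hypoxia-inducible factor (HIF) is no longer degraded and binds short DNA elements in the promoters of glucose transporters and glycolytic enzymes, of lactate dehydrogenase, and of the kinase that closes the entry of pyruvate into mitochondria. Pluripotent cells of the primed state and proliferating cells use glycolysis heavily even in air, and MYC proteins act on many of the same promoters.

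The core of the HIF element, ACGTG or GCGTG on either strand, was looked for in the RefSeq promoters of the 10 genes (250 bases before to 50 after each start, GRCm38.p6, the assembly behind mm10). ACGTG was in 19.6% and GCGTG in 32.4% of all 32851 promoters. Of the 17 promoters of the 10 genes, 7 (41.2%) held ACGTG and 8 (47.1%) held GCGTG. Some of these windows overlap, so that starts 2 and 3 of Aldoa, and of Eno1, count the same sites. The share over all promoters was not matched for GC content, which was 40.3% to 69.0% in the 17 windows. By gene, ACGTG was in Slc2a1, Hk2, Aldoa, Pgk1, Pkm and Ldha, GCGTG without ACGTG in Pfkp, Eno1 and Pdk1, and neither in Gpi1. A match is a description of the letters and not a bound site. The windows below are of these 6 genes with ACGTG, picked for display after the genes were seen to vary together between libraries. A link between the 2 was not tested. Each is written on the strand of the gene, with the core or its reverse complement in capitals, and its position is that of the first capital letter, the first transcribed base being +1.
Ldha, position -145 (chr7:46845649-46845673, plus strand): tgtcgcagcaCACGTggagccactc
Ldha, position -48 (chr7:46845746-46845770, plus strand): gcccagcctaCACGTgggttcccgc
Pgk1, position -150 (chrX:106186940-106186964, plus strand): gtcgtgcaggACGTGacaaatggaa
Pgk1, position -131 (chrX:106186959-106186983, plus strand): atggaagtagCACGTctcactagtc
Slc2a1, position -36 (chr4:119108699-119108723, plus strand): cccgccccggACGTGctccccaggc
Hk2, position -52 (chr6:82774492-82774516, minus strand): tgagcacatcCACGTcactgtccgg
Aldoa, position -126 of start 2 (chr7:126799366-126799390, minus strand): tggctcgagtCACGTcctagcgggg
Pkm, position -75 of start 2 (chr9:59657142-59657166, plus strand): ccgatccggtCACGTccgcgccgca

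In both Ldha windows the capitals are followed by a g, so that the letters read the same on both strands (CACGTG, which is also the E-box that MYC and other factors bind). Each of these was counted on both strands, which with another site at position -34 gave the first Ldha promoter 5 matches to ACGTG, beside 2 to GCGTG. Pfkp held 4 matches to GCGTG.

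The labels were first checked on the targeted gene. Trim71 values were 2782, 2736, 1988 and 2584 normalized read counts in WT replicates 1 to 4 and 500.3, 793, 733 and 247 in KO replicates 1 to 4. The ranges of the genotypes were far apart, with a log2 difference of -2.39 ± 0.35 (SE, exact permutation p = 0.0286). The deposited values hold a clone correction made by the authors, and with it undone the KO values of Trim71 were 223, 516, 456 and 524. mRNA of the remaining exons is counted in these values, so they do not reach 0. In a bulk library, fewer cells of a type and less RNA per cell cannot be told apart.

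The differences of the 10 genes between the genotypes were small. The difference between KO and WT was above 0 in 9 of 10 genes, against 6774 of 13558 transcripts, and its median was 0.20 on the log2 scale, against 0.00 over all transcripts. Without WT replicate 3, a day 4 library, the median was 0.07. 1 of the 10, Eno1, had an unadjusted limma p under 0.05, where 9.09% of all 13558 transcripts did (4.62% higher and 4.46% lower in KO). By limma's adjusted p, 0 of the 10 and 0 of all transcripts (0.00%) passed 0.05, as with voom on recovered reads, and the smallest limma value of any transcript was 0.275. Unadjusted, limma put 1232 transcripts under 0.05 and voom put 1247 of 13350 there. All differences between genotypes below are KO minus WT, on the scale of log2(value + 1), from limma with clone as a term.

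**Figure D1:**
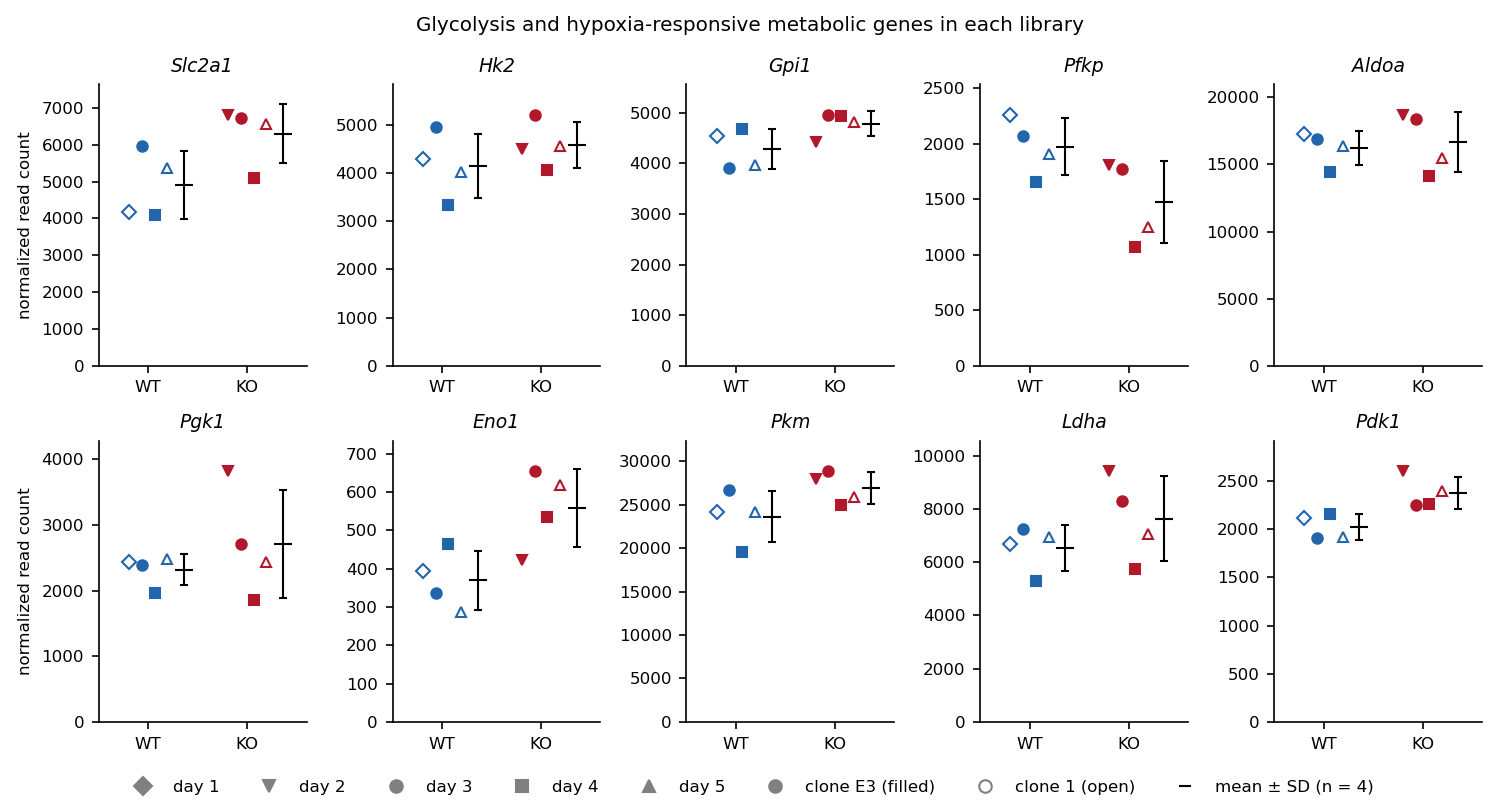
Normalized read count of each of the 10 genes in every WT (blue) and KO (red) library, with the marker shape giving the day, filled markers clone E3 and open markers clone 1. Black bars are the mean ± SD of 4 libraries. Only Pdk1 has all KO libraries (2256 to 2607) above all WT libraries (1907 to 2158).

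Glucose enters the cell through Slc2a1 (GLUT1), the transporter that most cells use for basal uptake and a textbook HIF target. Slc2a1 was at 4185, 5969, 4088 and 5369.7 normalized read counts in WT replicates 1 to 4 and at 6819.8, 6730.2, 5111 and 6556 in KO replicates 1 to 4. KO replicate 3 lay well below the other KO libraries and below 2 of the WT libraries, so the groups overlapped. The means were 4903 ± 919 in WT and 6304 ± 803 in KO (SD, n = 4), a log2 difference of 0.37 ± 0.18 (SE) with a 95% interval from -0.06 to 0.80. The unadjusted limma p was 0.0807 and the adjusted p 0.59. KO was above WT on each of days 3, 4 and 5, by 0.17, 0.32 and 0.29, and the differences within clones were 0.32 in E3 and 0.47 in clone 1. The unadjusted p was under 0.05 in 3 of 25 alternatives, among them those without KO replicate 3 (0.0346) and without WT replicate 2 (0.0261), and ranged up to 0.269. Without WT replicate 3 the difference was 0.25.

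Hk2 phosphorylates glucose and so traps it in the cell. It was measured at 4295, 4951, 3337 and 4023 in WT and at 4502, 5217, 4068 and 4575 in KO. The day 4 library was the lowest and the day 3 library the highest of both groups, and the groups overlapped over most of their range. The difference was 0.16 ± 0.16 (SE, unadjusted limma p = 0.359, exact permutation p = 0.343). It was 0.00 without WT replicate 3, 0.10 without KO replicate 2 and 0.31 without WT replicate 2.

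Gpi1 converts glucose 6-phosphate to fructose 6-phosphate. Its values were 4548, 3911, 4684 and 3967 in WT and 4422, 4963, 4928 and 4824 in KO. All KO libraries other than replicate 1 were above every WT library, and the difference of 0.17 ± 0.12 (SE) had an unadjusted limma p of 0.207 and an exact permutation p of 0.0857. Without WT replicate 2 the difference was 0.10. Gpi1 was the only gene of the 10 with neither HIF core in its promoter. Over the 8 libraries it did not follow the other genes (Pearson r with the mean of the other 9 genes 0.06). Pfkp (-0.05) and Eno1 (0.08) did not follow them either, and a link to the promoters was not tested.

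Pfkp, the platelet-type isozyme of phosphofructokinase, which catalyses the committed step of glycolysis, was the only gene lower in KO. It was at 2263, 2066, 1658 and 1913 in WT and at 1813, 1774, 1072 and 1252 in KO. KO replicates 3 and 4 lay below all WT libraries, while KO replicates 1 and 2 lay above WT replicate 3. The means were 1975 ± 256 in WT and 1478 ± 372 in KO (SD, n = 4), and the log2 difference was -0.45 ± 0.22 (SE) with a 95% interval from -0.97 to 0.07 and an unadjusted limma p of 0.0788 (adjusted p = 0.589). Pfkp was lower in KO on each of the 3 days, by -0.22, -0.63 and -0.61, and in both clones, by -0.29 in E3 and -0.73 in clone 1. A fit on the 6 libraries of days 3 to 5 with day as a block gave Pfkp a difference of -0.49 ± 0.13 (SE) and an unadjusted limma p of 0.0184. In that fit 19.2% of all transcripts were under 0.05 before adjustment (9.92% higher and 9.26% lower in KO), 7.49% were also changed by 1.5-fold or more, and none (0.00%) remained after adjustment (1345 and 1256 transcripts before it). The p was under 0.05 in 6 of 25 alternatives, 4 of them with the block and the others without KO replicate 1 (0.0459) and without both day 4 libraries (0.0335). On the same 6 libraries without the block it was 0.0957, and without KO replicate 4 it was 0.333 with a difference of -0.29.

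The later steps of the pathway open with Aldoa, the aldolase that splits the 6-carbon sugar, which was at 17280.4, 16904, 14409 and 16375 in WT and at 18713, 18359, 14123 and 15503 in KO. The day 4 libraries of both genotypes were the lowest, and the KO libraries covered a wider range than the WT libraries on both sides. The difference was 0.03 ± 0.14 (SE), the smallest of the 10 genes, and its sign turned with several settings. Without KO replicate 1 it was -0.02, without WT replicate 3 it was -0.05, and with the trend over GC content and length removed it was -0.09.

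Pgk1 makes the first ATP of the pathway. Its values were 2429.6, 2386, 1969 and 2476 in WT and 3821, 2710.0, 1861 and 2431 in KO. KO replicate 1 stood far above all other libraries and KO replicate 3 below all of them. The difference was 0.19 ± 0.23 (SE, unadjusted limma p = 0.438, exact permutation p = 0.457) over all libraries, 0.03 without KO replicate 1, 0.08 without WT replicate 3, and 0.34 without KO replicate 3.

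Eno1 makes phosphoenolpyruvate, and it was the only gene of the 10 with an unadjusted p under 0.05. It was at 393, 336, 464 and 286 in WT and at 423, 655, 535 and 619 in KO. Only KO replicate 1 lay within the range of the WT libraries, below WT replicate 3. The means were 369.5 ± 76.6 in WT and 558 ± 103 in KO (SD, n = 4), the log2 difference was 0.59 ± 0.21 (SE), the unadjusted limma p 0.0286 and the adjusted p 0.498. Its fold change lay just over the criterion of at least 1.5 with an unadjusted p under 0.05, which 4.25% of all transcripts passed (1.76% higher and 2.49% lower in KO). The difference was 0.42 within clone E3 and 0.88 within clone 1. Leaving out KO replicate 2 raised the p to 0.0665 and leaving out KO replicate 4 raised it to 0.167. It was 0.0918 with WT replicate 2 left out and 0.0559 with WT replicate 4 left out.

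The Eno1 value stood for a small part of the enolase reads. A near-identical copy, Eno1b, matched 1736 bases of the 2027-base Eno1 transcript at 99.5% identity, and it held 21526 to 31150.2 normalized read counts, 41.6 to 92.3 times the Eno1 value of the same library. How the authors' counting shared reads between such copies is not stated, so the value of Eno1 alone is uncertain. Added together, Eno1 and Eno1b came to 21990 to 28106 in WT and to 26359 to 31573 in KO, which overlap. The log2 difference of the sum was 0.15 ± 0.14 (SE) with an unadjusted limma p of 0.308, so the call on Eno1 was lost when the copies were added, a setting chosen after the values were seen. Gpi1, Pgk1, Pkm and Ldha also have copies elsewhere in the genome at 95% identity or more (1, 4, 2 and 4 genes), none of which was in the table.

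Pkm, pyruvate kinase, makes pyruvate and the second ATP, and had the most reads of the 10 genes. It was at 24200.0, 26638, 19557 and 24159 in WT and at 27958, 28889, 25004 and 25841 in KO. Only WT replicate 2 reached the range of the KO libraries. The difference was 0.20 ± 0.14 (SE, unadjusted limma p = 0.191, exact permutation p = 0.0857). It was 0.06 without WT replicate 3 and 0.30 without WT replicate 2.

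Ldha turns pyruvate into lactate. It was at 6698, 7236, 5274 and 6947 in WT and at 9425, 8284, 5733 and 7057 in KO. KO replicates 1 and 2 were above all WT libraries, KO replicate 4 was inside and KO replicate 3 near the bottom of the WT range. The difference was 0.22 ± 0.20 (SE, unadjusted limma p = 0.313, exact permutation p = 0.314). It was 0.07 without WT replicate 3, 0.11 without KO replicate 1 and 0.33 without KO replicate 3.

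Pdk1 phosphorylates pyruvate dehydrogenase and so holds pyruvate back from the mitochondria. It was at 2116, 1907, 2158 and 1916 in WT and at 2607, 2256, 2258 and 2395 in KO. It was the only gene of the 10 with every KO library above every WT library, a pattern that 5.48% of all transcripts showed, beside 4.62% with every KO library below every WT library (10.1% in all). The means were 2024 ± 131 in WT and 2379 ± 165 in KO (SD, n = 4), a fold change of 1.18 and a log2 difference of 0.23 ± 0.11 (SE) with a 95% interval from -0.04 to 0.50. The unadjusted limma p was 0.0792, the adjusted p 0.589 and the exact permutation p 0.0286, the smallest that 4 against 4 libraries can give. The difference was 0.22 in clone E3 and 0.25 in clone 1. Pdk1 passed an unadjusted p of 0.05 in 6 of 25 alternatives: without a clone term (0.0385), with voom on recovered reads (0.04997), with a linear model on untransformed values (0.0313), without both day 4 libraries (0.0450) and with the GC and length trend removed (0.0159, or 0.0142 with the day block). The day block alone gave 0.112, and leaving out any 1 library gave 0.0657 to 0.21.

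**Figure D2:**
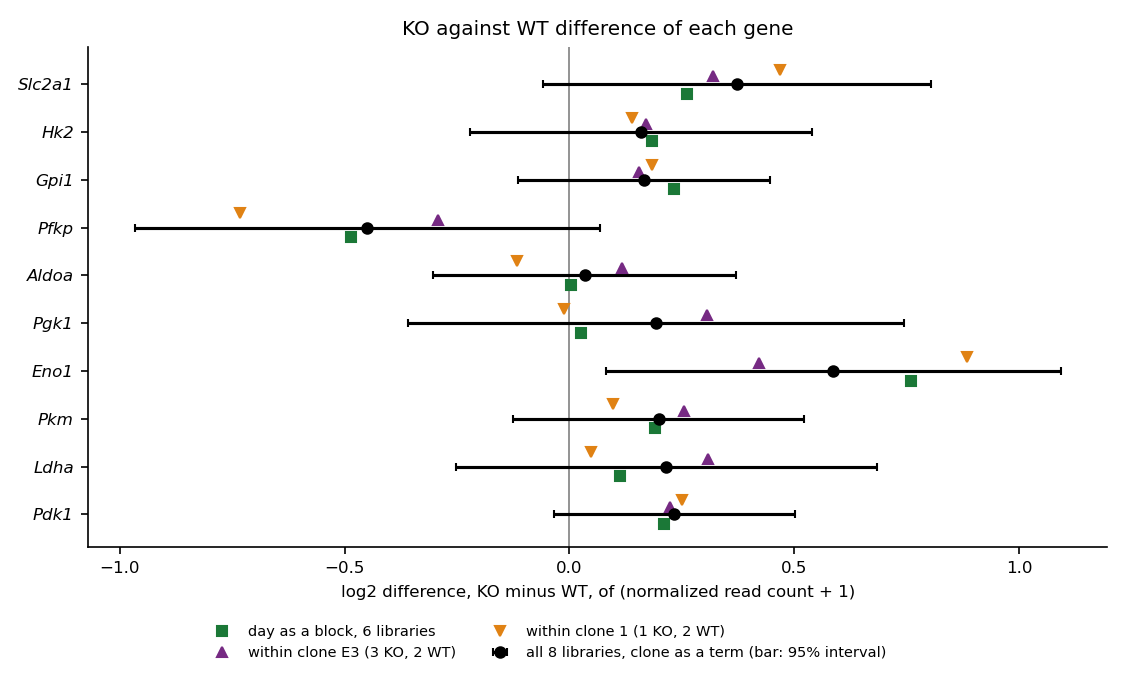
Log2 difference between KO and WT of each gene from all 8 libraries (black, with the 95% interval), with day as a block over 6 libraries (green) and within each clone (purple and orange). The interval of Eno1 alone, 0.08 to 1.09, lies clear of 0, and Pfkp alone is below 0 in all 4 estimates.

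For none of the 10 genes was the KO minus WT difference seen to differ between the clones. The difference between the KO effects in E3 and in clone 1 had a smallest unadjusted limma p of 0.345 (Eno1), where 2.59% of all transcripts had one under 0.05 and 0.0885% passed an adjusted p of 0.05. Clone 1 had a single KO library, so these comparisons are coarse.

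Counting error was below the spread between libraries. Between 190 reads (Eno1 in WT replicate 2) and 44590 reads (Pkm in WT replicate 3) were recovered per gene and library, out of 7658483 to 28333575 reads per library on the deposited transcripts. The counting error of a single value was at most 7.25% for Eno1 and at most 3.32% for the other genes. The SD between libraries of a group, pooled on the log2 scale, ranged from 0.10 (Pdk1) to 0.32 (Pgk1). Pdk1, with the smallest SD, had a counting error of up to 3.12%, which was not small beside its spread. The errors are in percent and the SDs in log2 units.

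Several of the genes followed the day of the library. In 7 of the 10 genes, Slc2a1, Hk2, Pfkp, Aldoa, Pgk1, Pkm and Ldha, the day 4 library was the lowest of both the WT and the KO group, which held for 20.6% of all transcripts. The same 7 genes were below the day 3 library of their genotype on day 4 in both genotypes, as were 37.6% of all transcripts. Of these, Ldha was 27.1% lower in WT and 30.8% lower in KO, Slc2a1 31.5% and 24.1% lower, Hk2 32.6% and 22.0% lower, and Pkm 26.6% and 13.5% lower. The median difference from day 3 to day 4 over the 10 genes was -0.30 in WT and -0.37 in KO on the log2 scale, against 0.01 and 0.00 over all transcripts. Gpi1, Eno1 and Pdk1 were not the lowest on day 4 in both genotypes. This count was made after the values were seen, each genotype has 1 library of that day, and what set day 4 apart was not tested.

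The 24 other glycolytic genes went both ways on day 4. The lowest of both groups were in the day 4 libraries for 7 of them (Adpgk, Pfkl, Tpi1, Pgam1, Ldhc, Slc16a1 and Slc16a3), among them isozymes of Pfkp and Ldha. Another 6, Slc2a3, Hk1, Pfkm, Eno2, Ldhb and Ldhd, were the highest of both groups in the day 4 libraries, as 19.3% of all transcripts were. Of 13 genes for the entry of pyruvate into mitochondria, 3 were the highest of both groups on day 4 (Dlat, Pdk2 and Pdk4). In the same list 4 were the lowest (Pdha1, Pdhb, Dld and Pdhx). Pdk3, another kinase of pyruvate dehydrogenase, was in neither set. Ldhb, the heart-type lactate dehydrogenase subunit, was at 909 in WT and 909.3 in KO on day 3 and at 2925 and 2091 on day 4. As a share of Ldha and Ldhb together, per kilobase of mRNA, Ldha made up 85.1% in WT and 86.8% in KO on day 3 and 56.4% and 66.3% on day 4. In the same libraries the stem cell markers Nanog, Sox2, Esrrb, Tfcp2l1, Fgf4 and Dppa5a were the highest and Pou5f1 and Zfp42 the lowest of both groups. Their part in the result was not tested.

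KO replicates 1 and 2 had the highest mean log2 deviations over the 10 genes, 0.20 and 0.21. KO replicate 2, of day 3, was the highest of all 8 libraries in Hk2, Gpi1, Eno1 and Pkm. KO replicate 1, from day 2, has no WT library of its day. It was the highest of all 8 libraries in 5 of the 10 genes (Slc2a1, Aldoa, Pgk1, Ldha and Pdk1), against 17.1% of all transcripts. It was also the highest in 8 of 23 HIF targets outside glycolysis, among them the mitophagy receptor Bnip3 at 791 normalized read counts, against 279 to 512 in the other KO libraries and 336 to 424 in WT, and Ankrd37 at 103, against 21.8 to 57.5 and 35.0 to 50.2. Of the 14 HIF subunits and oxygen sensors it was the highest in 5, among them Egln3, a prolyl hydroxylase that HIF itself induces, at 371 against 143 to 340 in the other KO libraries and 178 to 251 in WT. Other genes of these lists went the other way. Vegfa, at 443 in KO replicate 1, was the lowest of all 8 libraries there. It was at 508 to 731 in the other KO libraries and at 517 to 735 in WT. Arnt2 (25.2) and Hif1an (1178) were also the lowest of all 8 in KO replicate 1. What set KO replicates 1 and 2 apart was not tested. Without KO replicate 1 the median difference of the 10 genes was 0.17 and the adjusted p of no transcript was under 0.05 (limma; 1389 at an unadjusted p under 0.05).

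**Figure D3:**
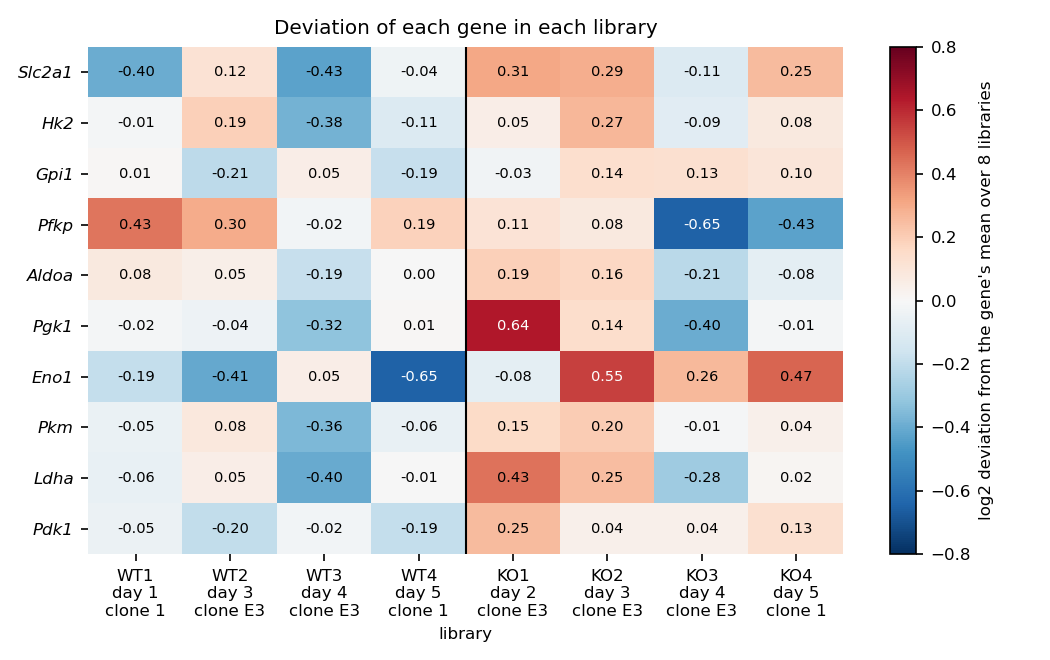
Log2 deviation of each gene in each library from its own mean over the 8 libraries, with day and clone under each library. The day 4 libraries (WT3 and KO3) are low in 7 genes, KO replicate 1 is high in Pgk1 (0.64) and Ldha (0.43), and Gpi1, Pfkp and Eno1 follow other orders.

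Over the 8 libraries, 6 of the 10 genes varied together. The Pearson correlation of a gene with the mean of the other 9 was 0.90 for Ldha, 0.82 for Pkm, 0.80 for Aldoa, 0.75 for Hk2 and Pgk1 and 0.72 for Slc2a1. It was 0.47 for Pdk1 and 0.06, -0.05 and 0.08 for Gpi1, Pfkp and Eno1. The 6 genes with the highest values are those with ACGTG in a promoter window shown above, an overlap seen only after the values were known. The share of all transcripts with such values is not given here, and a part of the promoters in this pattern was not tested. Pfkp, without ACGTG, was lowest on day 4 in both genotypes as these 6 genes were. These correlations describe 8 libraries that share clones, days and a common normalization. Outside all lists, the transcripts with a mean of at least 50 whose pattern was most like the mean of the 10 genes were Lamtor4 (r = 0.98), Tssc4 (0.98), Tmem55a (0.97), 2610318N02Rik (0.97) and Sh3gl2 (0.97), each over 8 libraries.

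Levels were compared between genes per kilobase of mRNA, with the longest GENCODE transcript tied to a RefSeq mRNA as length. In WT the order was Aldoa (10490 ± 825 normalized read counts per kilobase, SD, n = 4), Pkm (9720 ± 1216), Ldha (3603 ± 480), Slc2a1 (1504 ± 282), Gpi1 (1483 ± 137), Pgk1 (1268 ± 128), Hk2 (753 ± 121), Pfkp (476.5 ± 61.7), Pdk1 (390.4 ± 25.3) and Eno1 (182 ± 37.8). Aldoa and Pkm differed by less than the spread between libraries, and so did Slc2a1 and Gpi1. The WT ranges of Pfkp (399.9 to 546) and Pdk1 (367.8 to 416.1) overlapped. 99.8% of transcripts with a known length were below Aldoa, 98.9% below Ldha and 59.8% below Eno1. With Eno1b at 14370.0 ± 1597 (12020 to 15470) the enolase step lay above Aldoa (9302 to 11160) and Pkm (8042 to 10950) in WT. The low rank of Eno1 is thus that of 1 of the copies.

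The member was not the main isozyme at every step. Slc2a3 (GLUT3), a transporter of high affinity, was at 4893 ± 326 per kilobase in WT, and Slc2a1 made up 18.9% to 28.1% of the pair in WT and 19.2% to 30.3% in KO. Pfkp gave 21.6% to 29.4% of the phosphofructokinase RNA in WT and 14.6% to 22.2% in KO, the rest being Pfkl and Pfkm. Hk2 gave 64.6% to 82.9% of Hk1 and Hk2 together in WT and 71.6% to 82.8% in KO. Aldoa exceeded Aldoc in every library, at 98.4% or more of the pair. Pdk1 was the leading pyruvate dehydrogenase kinase, at 50.8% to 55.1% in WT and 52.8% to 59.1% in KO.

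**Figure D4:**
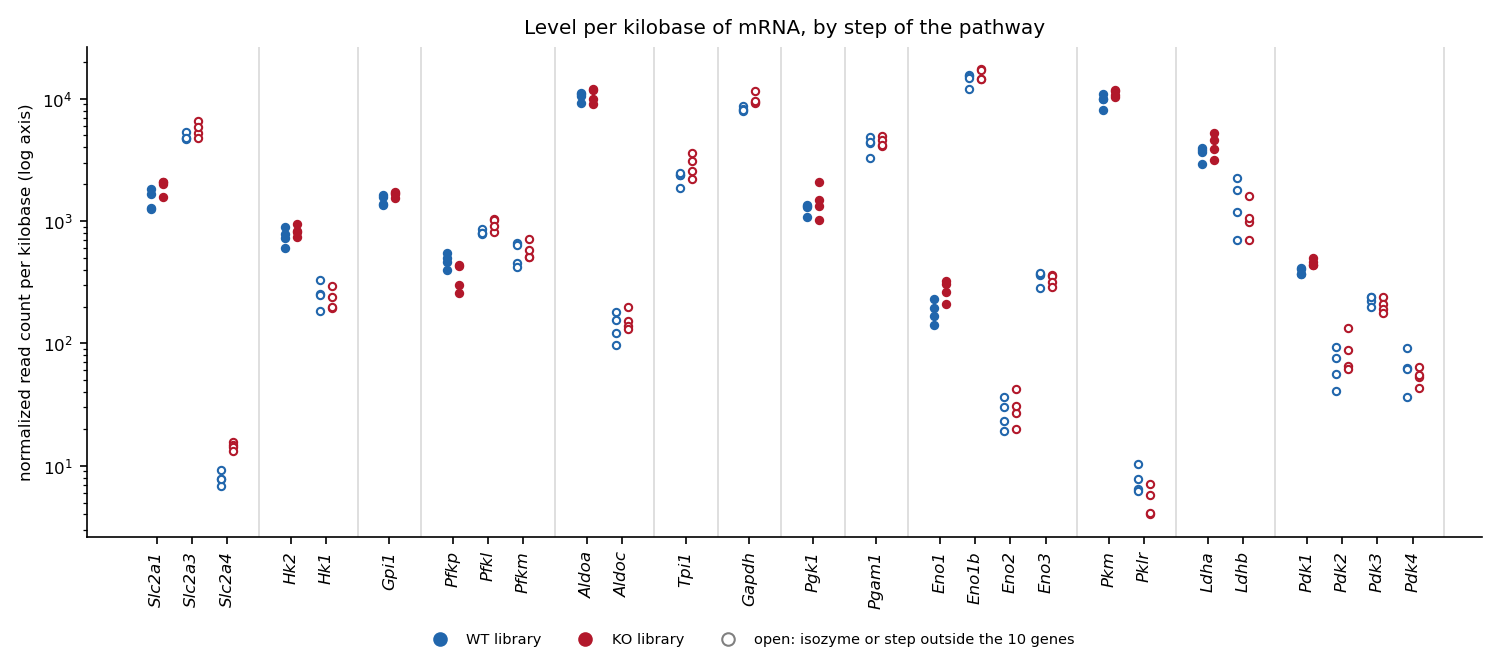
Normalized read count per kilobase of mRNA (log axis) in each WT (blue) and KO (red) library, grouped by step of the pathway, with the 10 genes filled and other isozymes or steps open. Slc2a3 lies above Slc2a1 and Eno1b above Eno1 in all 8 libraries, while Aldoa, Ldha and Hk2 lie above their isozymes.

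The genes around the 10 were counted in 8 lists. Of 98 genes present in these lists, 7 were higher and 3 lower in KO at an unadjusted limma p under 0.05, which is 10.2% of them, against 9.09% of all transcripts. With day as a block these were 17 genes, in a fit where 19.2% of all transcripts did. They were 3 genes without KO replicate 4, where 3.26% of all transcripts had such a p, 6 without WT replicate 3 (9.56% of all transcripts) and 17 without KO replicate 3 (10.7%). None had an adjusted p under 0.05 in any of these fits.

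Of 24 other glycolytic isozymes, transporters and steps, 15 were higher and 9 lower in KO, with a median log2 difference of 0.12. 1 of them had an unadjusted p under 0.05, Slc2a4 (GLUT4, the insulin-responsive transporter of muscle and fat). Slc2a4 was at 23.2, 19.7, 17.2 and 19.8 in WT and at 39.5, 37.2, 35.6 and 33.4 in KO. The groups did not overlap, and the log2 difference of 0.85 ± 0.13 (SE, unadjusted limma p = 0.00029, adjusted p = 0.294, exact permutation p = 0.0286) kept an unadjusted p of 0.00154 or less when any 1 library was left out. Per kilobase this was a very low level, with 8.56% of transcripts below it in WT.

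Gapdh, which makes NADH and is often used as a reference gene, was at 12398, 11669, 11155 and 11460.0 in WT and at 13023, 16279, 13318 and 13517 in KO. Every KO library was above every WT library, and the log2 difference was 0.26 ± 0.12 (SE, unadjusted limma p = 0.0655, exact permutation p = 0.0286). With the day block, where 19.2% of all transcripts were under 0.05, the unadjusted limma p of Gapdh was 0.0350 (adjusted p = 0.247). Of the other steps, Tpi1 had a difference of 0.33 ± 0.19 (SE, exact permutation p = 0.171) and Pgam1 of 0.09 ± 0.16 (exact permutation p = 0.629). Slc2a3, Hk1, Pfkl, Pfkm, Aldoc, Eno2, Eno3 and Ldhb had differences from -0.34 (Ldhb) to 0.21 (Pfkl), all with an unadjusted p above 0.05.

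Of 13 genes for the entry of pyruvate into mitochondria, 1 passed that p, Mpc1, a subunit of the mitochondrial pyruvate carrier. It was at 32.7, 64.6, 56.5 and 59.4 in WT and at 96.7, 99.5, 72.0 and 109 in KO, without overlap. The log2 difference was 0.81 ± 0.25 (SE, unadjusted limma p = 0.0146, adjusted p = 0.457, exact permutation p = 0.0286), and 0.54 without KO replicate 4, with an unadjusted limma p of 0.11. The other pyruvate dehydrogenase kinases had differences of 0.41 (Pdk2), -0.14 (Pdk3) and -0.15 (Pdk4), none with an unadjusted p under 0.05. Under the day block Pdk2 had an unadjusted limma p of 0.00294 (adjusted p = 0.20), where 19.2% of all transcripts were under 0.05 before adjustment.

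In the pentose phosphate pathway, which branches off at glucose 6-phosphate, 2 of 9 genes passed an unadjusted p of 0.05. Pgd, the second dehydrogenase of its oxidative arm, was at 2709, 3734, 2737 and 3207 in WT and at 3584, 3920.3, 4013 and 4209 in KO, overlapping in 1 library of each group. The difference of 0.35 ± 0.15 (SE) had an unadjusted limma p of 0.0471 and an exact permutation p of 0.0571, and the limma p was above 0.05 in 6 of the 8 fits that left out 1 library (up to 0.222). Tktl1, a transketolase-like gene, was at 6.85 to 15.5 in WT and 3.79 to 7.23 in KO, a difference of -0.93 ± 0.30 (SE, unadjusted limma p = 0.0173, exact permutation p = 0.0571) that had a p of 0.12 without KO replicate 4 and 0.0695 without WT replicate 2. Of the 5 genes that control fructose 2,6-bisphosphate, the activator of phosphofructokinase, and the 6 of gluconeogenesis, 0 passed an unadjusted limma p of 0.05, with medians of 0.07 and 0.08.

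The HIF system itself was listed next. Hif1a, the alpha subunit that drives the glycolytic targets, was at 1847, 2141, 1651 and 1769 in WT and at 1756, 1854, 889.7 and 1617 in KO. KO replicate 3, of day 4, was far below all other libraries, and the difference was -0.31 ± 0.26 (SE, unadjusted limma p = 0.266, exact permutation p = 0.229). Epas1, which encodes HIF-2 alpha, was at 438, 988, 578 and 552 in WT and at 882, 1265, 953 and 1417 in KO. Only WT replicate 2 reached the KO range, and the log2 difference was 0.82 ± 0.29 (SE, unadjusted limma p = 0.0246, adjusted p = 0.487, exact permutation p = 0.0857). It was 0.43 within clone E3 and 1.52 within clone 1, and the p was 0.187 without KO replicate 4, 0.0537 without KO replicate 2 and 0.0803 without WT replicate 3. Epas1 was the only 1 of 14 HIF subunits and oxygen sensors with an unadjusted p under 0.05.

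Of 23 HIF targets outside glycolysis, 14 were higher and 9 lower in KO, with a median log2 difference of 0.20, and of 0.04 under the day block. Ddit4, an inhibitor of mTORC1 signalling, was at 631, 799, 762.4 and 738 in WT and at 1048, 944, 1129 and 1168 in KO, without overlap. Its difference of 0.54 ± 0.13 (SE, unadjusted limma p = 0.0045, adjusted p = 0.445, exact permutation p = 0.0286) kept a p of 0.0431 or less without any 1 library. Bhlhe40, a transcriptional repressor, was at 159 to 246 in WT and 266 to 433 in KO, a difference of 0.70 ± 0.21 (SE, unadjusted limma p = 0.013, exact permutation p = 0.0286) that had a p of 0.0579 without KO replicate 4.

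Higd1a, a mitochondrial survival factor, differed by 0.40 ± 0.17 (SE, unadjusted limma p = 0.0488, exact permutation p = 0.0571), with a limma p above 0.05 in 6 of the 8 fits that left out 1 library (up to 0.302). Car12, a membrane carbonic anhydrase, was lower in KO, at 13.1 to 50.4 against 39.0 to 91.0 in WT, by -1.12 ± 0.46 (SE, unadjusted limma p = 0.046, exact permutation p = 0.0571), and likewise missed 0.05 in 6 of the 8 fits (up to 0.154). Vegfa and Bnip3, among the most used markers of hypoxia, differed by -0.08 (limma 0.726, unadjusted) and by 0.32 (0.34).

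Among MYC genes, Mycl was at 384, 253, 382 and 278 in WT and at 166, 149, 262 and 174 in KO, with KO replicate 3 alone inside the WT range. The log2 difference was -0.80 ± 0.24 (SE, unadjusted limma p = 0.0127, exact permutation p = 0.0571), with a p of 0.0626 without KO replicate 4 and 0.0542 without WT replicate 3. Myc and Mycn had differences of 0.68 ± 0.46 and -0.03 ± 0.23 (SE, exact permutation p = 0.20 and 0.914).

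**Figure D5:**
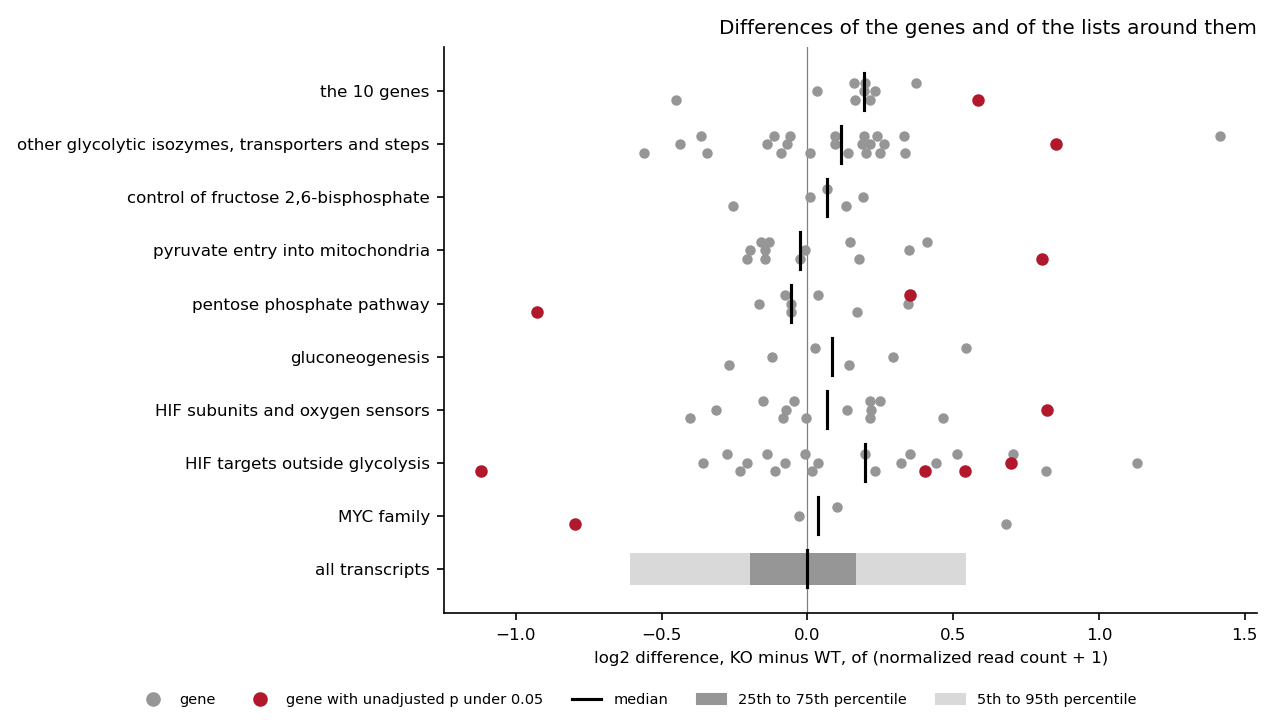
Log2 difference between KO and WT of the 10 genes and of the genes of 8 lists around them, with the median of each as a black bar and genes with an unadjusted p under 0.05 in red. The median of the 10 genes is 0.20 and that of all transcripts 0.00, with the middle range of all transcripts from -0.20 to 0.17.

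Markers of the cell type were checked beside these results. All 10 ES cell markers were present, with sums of 70100 to 92290 in WT and 77600 to 102800 in KO, and 0 of them had an unadjusted limma p under 0.05. Of 8 endoderm markers 6 were present, with sums of 67.9 to 422 in WT and 259 to 570 in KO. The lowest sum was that of WT replicate 1, where Gata6, Sox17 and Foxa2 were at the floor of 1 (Foxa2 in WT replicate 4 too), and the highest that of KO replicate 4, both of clone 1. Their median difference was 1.33, with 0 of 6 at an unadjusted limma p under 0.05. Mesoderm (6 of 8 present), neural (6 of 8) and fibroblast markers (4 of 8) had median differences of 0.05, -0.355 and 0.10. Higher and lower in KO were 3 and 3 mesoderm, 2 and 4 neural, and 3 and 1 fibroblast markers. Their sums were 165 to 275, 968 to 1629 and 8280 to 16510 in WT. In KO the sums were 206 to 275, 808 to 1059 and 6026 to 15070. Past an unadjusted p of 0.05 were the mesoderm marker Eomes (0.51, limma p = 0.0385, exact permutation p = 0.0571) and the neural marker Nes (-0.50, limma p = 0.0162, exact permutation p = 0.0286). Within clone E3 (3 KO and 2 WT libraries) the 6 endoderm markers had differences from -0.30 to 0.07. The 10 genes had differences there from -0.29 (Pfkp) to 0.42 (Eno1, whose value is uncertain because of Eno1b). The smallest unadjusted limma p of the 10 genes within E3 was 0.167 (Eno1). The part of cells with any of these markers in the differences of the 10 genes was not tested.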

How the data were processed

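The 10 genes, the lists and the rule for named genes were chosen with earlier results of these data known. Named were the 10 genes, Trim71, their isozymes, selected HIF and MYC genes, every listed gene with an unadjusted p under 0.05, and the 5 transcripts most like the mean of the 10 genes. Other genes were named after their values were seen: Eno1b, the genes highest in KO replicate 1 and those highest or lowest on day 4.

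Per the methods and the labels, the authors aligned 100 bp paired-end reads to mm10 (TopHat2, Bowtie2), assigned them to RefSeq transcripts, scaled the read counts in DESeq2, removed a batch effect in Partek, raised values under 1 to 1 and dropped low transcripts. The deposited values are thus a signal of normalized, corrected read counts, called normalized read counts here. No per-sample column was left unused (0).

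That the corrected batch was the clone is not stated and was read from the values. The correction was undone by finding, for each transcript, the whole read numbers that give its values once scaled by library and shifted by clone. This gave unique whole reads for 13350 transcripts (98.5%), all those without a value at the floor of 1, and 100% of their values came back to about the printed precision. The KO libraries, in the order of their numbers, held 13439356, 14952936, 13229240 and 9457161 reads and the WT libraries 15413816, 7658483, 28333575 and 9688311, for these transcripts only.

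The test was limma (version 3.58.1, R version 4.3.3), fitted to log2 of the value plus 1 as pseudocount, with terms for genotype and clone, and Benjamini-Hochberg adjustment covered all transcripts. The pseudocount understates changes of low transcripts. Single genes were also compared by an exact two-sided permutation test over 70 assignments. It used the clone-corrected values and took no account of clone or day, so its p-values are exact only if the libraries are exchangeable. Whether replicates are separate cultures is not stated, so p-values measure only the spread between these libraries. Methods were tested on simulated data. Python 3.11.15, pandas 2.3.3, scipy 1.17.1, matplotlib 3.10.9 and BLAST 2.17.0 were used. Promoters are from RefSeq (GRCm38.p6) and lengths from GENCODE release M21. 99.2% of transcripts had a length and GC content.

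The labels' day pairs the libraries of days 3, 4 and 5. Deviations from the group means of the same-day pairs correlated at 0.581, 0.6 and -0.115 in the deposited values and at 0.651, 0.712 and 0.584 with the clone correction undone (medians of the 13 pairs of different days 0.0389 and -0.208). Each same-day pair also shares a clone. Alternatives covered the pseudocount, low values, clone term, block, centring, voom, the undone correction and each library left out.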

Additional observations from a re-analysis of the deposited data

Results flagged for a closer look

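Each of the 10 genes and Trim71 was checked in both groups for a library far from the others, 22 groups in all, of which chance flags about 1 in 20. 1 was flagged. Slc2a1 in KO replicate 3 was at 5111.2 normalized read counts, and its gap to the next KO library was 0.845 of the range of the group. KO replicate 3 is a day 4 library, and the WT library of that day was the lowest WT library for Slc2a1 as well. The interaction of genotype and clone flagged none of the 11 transcripts at a limma adjusted p under 0.05.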

How the results depend on the processing

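In all 25 alternatives the median difference of the 10 genes stayed above 0 (0.07 to 0.26), Trim71 stayed lower in KO with an unadjusted limma p under 0.05, and 0 transcripts passed an adjusted p of 0.05. The count of the 10 genes with an unadjusted p under 0.05 (1 as reported) was 2 without a clone term, on untransformed values, with voom and after correction for a trend over GC content and length. It was 0 with Eno1 and Eno1b added together, 3 without both day 4 libraries and 0 to 2 when any 1 library was left out. The share of all transcripts moved too, from 9.09% to 14.0% without a clone term, 15.9% without both day 4 libraries and 3.26% to 10.7% with 1 library left out. The count past the fold change criterion (1 as reported) was 0 with a pseudocount of 10, with libraries centred on the median, with voom, after the GC and length correction and with Eno1 and Eno1b added together, and 0 to 1 when any 1 library was left out. The genes of the 8 lists (10 as reported) were 3 to 17 in those fits. The cause was not tested.

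With libraries paired by day as a block, 2 of the 10 genes had an unadjusted p under 0.05 (also after the GC and length correction), and 3 did with the clone correction undone as well. Under the block 17 genes of the lists passed, 21 with the correction undone and 17 with the Eno1 copies added, while 0 of the 10 genes passed the criterion after that correction or the copies added. On the deposited values the block changed the call of Pfkp and of no other of the 10 genes. With the correction undone it also took Slc2a1 from an unadjusted limma p of 0.0858 to 0.0451, and after the GC and length correction it took Eno1 from 0.0276 to 0.0648.

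Aldoa turned from 0.03 to -0.0898 after the GC and length correction and to -0.17 with the block added. It ranged from -0.0543 (without WT replicate 3) to 0.12 (without KO replicate 4), with -0.02 without KO replicate 1 and -0.01 without KO replicate 2. The GC, Eno1b and day 4 alternatives were chosen after the data were seen. Fits without KO replicate 4 leave clone 1 with no KO library, so its interaction could not be fitted. Depth limits Eno1 most, at 190 reads in 1 library.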
